A study of Rattus norvegicus with 6 samples.

Results

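The serpins are a family of protease inhibitors and relatives, taken here as every gene of the deposited table whose symbol begins with Serpin, a clade letter from a to i and a number. The rule found 39 genes among the 33509 in the table, each under its own identifier. Of these 39, 21 had at least 1 count in some library, and 12 had enough counts to be tested. The libraries were RNA-seq of myocardial tissue from Sprague-Dawley rats: 3 from an acute myocardial infarction model given XHT (XHT 1 to 3) and 3 from the same infarction model without it (MOD 1 to 3). The series title names the preparation Xinhuitong and addresses its use in coronary heart disease. Both groups carried the infarction, and no group without one was analysed here. The labels gave no age, dose, time after infarction or sampled part of the heart. They also did not say whether each library came from its own animal, so p-values cover only the variation among these 6 libraries, part or all of which may be technical.

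Most serpins trap a serine protease by offering it a flexible loop as bait: once the loop is cut, the serpin refolds and carries the protease with it as an inactive complex. Secreted serpins restrain coagulation, the removal of fibrin and complement, and intracellular serpins protect cells from proteases of their own granules. Some members no longer inhibit proteases, such as the collagen chaperone encoded by Serpinh1 and the hormone carriers of clade A. In injured heart, serpins meet the plasminogen activators that clear fibrin and matrix, and the chaperone is needed wherever fibroblasts make collagen.

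Total counts per library lay between 16550007 and 17724689. Cardiomyocyte markers were found in every library, at uneven levels. The 9 listed summed to between 39320 and 65190 CPM (counts of a gene scaled to a common library size) in XHT libraries. In MOD libraries they summed to between 2298 and 27120 CPM, and each of the 9 was highest in MOD 3. Only 1 of these 9 passed the test, as higher in XHT. The 8 fibroblast markers summed to between 1529 and 2760 CPM in XHT and between 10550 and 32320 CPM in MOD, and 6 of them passed the test as lower in XHT. The 8 macrophage markers summed to between 289.9 and 383 CPM in XHT and between 848 and 1209 CPM in MOD, with 5 lower and 1 higher. Fewer cells of a type and less RNA per cell cannot be told apart in such bulk samples, and the part of cell makeup in the results that follow was not tested. The libraries were uneven within groups, with MOD 3 nearer to the XHT libraries than MOD 1 and MOD 2 in these markers. MOD 2 had both the lowest cardiomyocyte sum and the highest fibroblast sum. The markers therefore do not show that both groups held like tissue.

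On the deposited FPKM scale, which divides by gene length and so allows genes to be compared, the summed level of the family was 309, 565 and 432 FPKM in XHT 1, 2 and 3. It was 1543, 1752 and 847 FPKM in MOD 1, 2 and 3. The groups did not overlap, and the mean was 435 ± 128 FPKM in XHT against 1381 ± 474 FPKM in MOD (SD, n = 3 each). An exact permutation test, two-sided, gave p = 0.1, below which 3 against 3 cannot go, and 0.125 after Benjamini-Hochberg adjustment over 5 such measures. Without Serpinh1 the sum was 361 ± 82.9 FPKM in XHT and 695 ± 162 FPKM in MOD (exact permutation p = 0.1, adjusted 0.125).

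The order of the members by FPKM also differed between the groups. Of the members described here, the highest mean levels in XHT were those of Serping1 at 108 ± 34.8 FPKM, Serpinh1 at 74.1 ± 60.1, Serpinb6 at 65.0 ± 5.43, Serpinf1 at 53.3 ± 29.3 and Serpine2 at 37.2 ± 8.57. The libraries of each neighbouring pair in this order overlapped. In MOD the order was Serpinh1 at 686 ± 315 FPKM, Serpinf1 at 297 ± 100, Serping1 at 165 ± 26.1, Serpine2 at 75.1 ± 8.28, and Serpinb6 at 66.7 ± 13.002 (SD, n = 3 each). There the libraries of Serping1 and Serpine2 did not overlap, while the other neighbours did. Among all 33509 genes, Serpinh1 held rank 996 by mean FPKM in XHT and rank 92 in MOD. Its share of the family's FPKM was 13.7%, 25.4% and 8.43% in XHT 1, 2 and 3, against 49.6%, 54.5% and 40.1% in MOD 1, 2 and 3. Serping1 held the largest share in XHT 1, at 24.1%, and in XHT 2, at 25.5% just above Serpinh1. Serpinh1 led in all 3 MOD libraries.

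**Figure D1:**
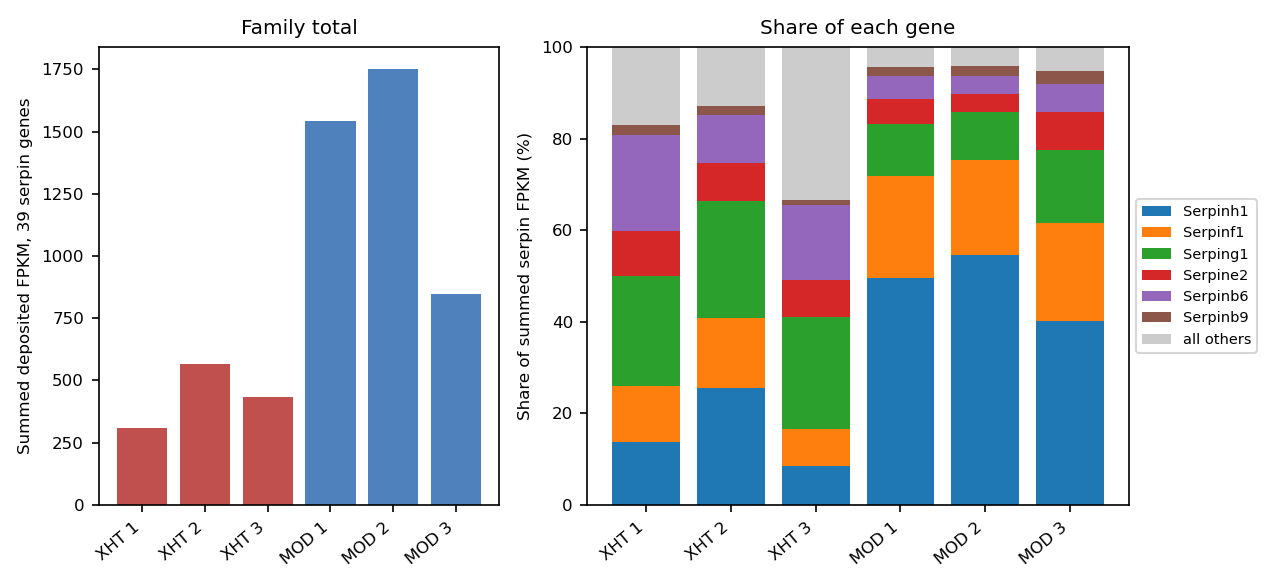
Left, summed deposited FPKM of the 39 serpin genes in each library; right, the share (%) of that sum held by each of 6 genes and by all others. XHT libraries lie between 309 and 565 FPKM, below MOD libraries at 847 to 1752 FPKM, and Serpinh1 takes 8.43% to 25.4% in XHT against 40.1% to 54.5% in MOD.

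By edgeR's quasi-likelihood test over all genes with Benjamini-Hochberg adjustment, 5 of the 12 tested serpins were lower in XHT at an adjusted p under 0.05 and 0 were higher. Over all 14488 tested genes 16.1% were called lower and 12.4% higher. At an unadjusted p under 0.05, 7 serpins were lower and 0 higher, and DESeq2 also called 5 lower and 0 higher. The 5 were Serpinh1, Serpinf1, Serpine2, Serpinb9 and Serpinb8, and in the authors' deposited table the adjusted p was under 0.05 for the same 5 and no other serpin. The XHT values lay wholly below the MOD values for 6 of the 12, where this held for 26.6% of all tested genes, and wholly above for 0 of the 12, against 24.7%. The median log2 fold change of the 12 was -0.92, beside -0.02 for all tested genes, and 11 of the 12 were negative, beside 7403 of 14488. Members with few counts could not enter these numbers. With scaling to total counts, which lowers all log2 fold changes, Serping1, Serpinb6b and Serpini1 were called lower as well.

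Each of the 5 calls depended on single libraries. Without MOD 1, XHT 1 or XHT 3 the test called 0 serpins, without MOD 2 it called 2 (Serpinf1 and Serpinb9), and without XHT 2 it called the same 5. Without MOD 3 it called those 5 with Serpinb6b and Serpinf2. The log2 fold changes of the 5 stayed negative each time, and their adjusted p-values in the fits that lost a call ran from 0.0503 to 0.125. Of all tested genes, the same leave-outs called between 4 and 3421 lower.

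**Figure D2:**
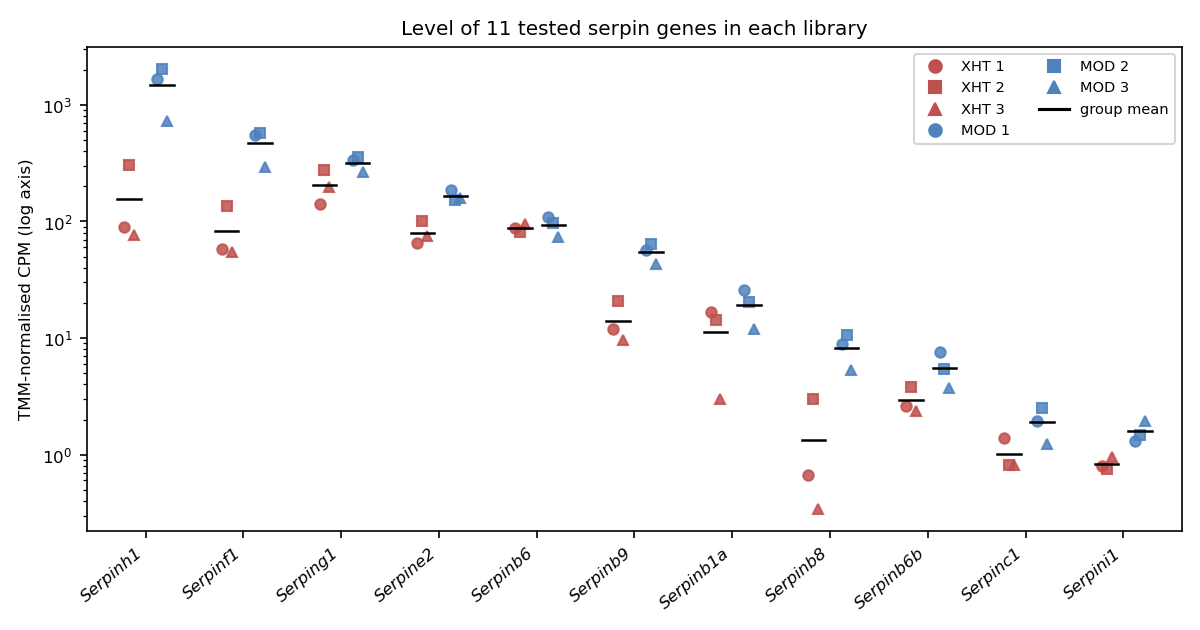
TMM-normalised CPM (log axis) of 11 tested serpins in each library, XHT in red to the left of MOD in blue, with a black line at each group mean. XHT points lie wholly below MOD points for Serpinh1, Serpinf1, Serpine2, Serpinb9, Serpinb8 and Serpini1, and the other 5 genes overlap.

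Serpinh1 and Serpinf1, the measured members without inhibitory function, both fell in XHT, where 16.1% of all tested genes were called lower. Serpinh1 encodes HSP47, a chaperone of the endoplasmic reticulum that binds folded procollagen and escorts it out. Its table entry (ENSRNOG00000016831) is a protein-coding gene on the minus strand of chromosome 1, from 164301010 to 164308317, in a genome build not given in the sources used here. It had 89.2, 303 and 75.8 CPM in XHT 1, 2 and 3, against 1652, 2031 and 733 CPM in MOD 1, 2 and 3. Every XHT library was below every MOD library, and the closest pair, XHT 2 and MOD 3, differed 2.42-fold. The means were 156 ± 128 CPM in XHT and 1472 ± 667 CPM in MOD (SD, n = 3 each), with a log2 fold change of -3.24 ± 0.69 (SE; edgeR quasi-likelihood adjusted p = 0.0195). Of all tested genes, 1.60% had a lower log2 fold change.

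Serpinh1 is known to be induced by heat shock, so its promoter is shown with the heat shock element in capitals (RefSeq, build GRCr8, minus strand, chr1:163062977-163063226, the 250 bases before the transcription start).
Serpinh1 promoter: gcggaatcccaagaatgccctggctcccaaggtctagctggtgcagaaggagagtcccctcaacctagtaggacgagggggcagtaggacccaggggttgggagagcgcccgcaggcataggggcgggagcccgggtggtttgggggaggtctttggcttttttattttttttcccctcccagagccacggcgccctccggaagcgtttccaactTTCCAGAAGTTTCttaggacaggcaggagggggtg
The capitals mark 3 inverted units of the element, GAANNTTCNNGAA read on either strand, which lie from position -35 to -23. Of 33361 promoters, searched from 250 bases before the start to 50 after, 0.797% hold this motif, and Serpinh1 was the only one of the 8 tested serpins with a promoter entry to hold it. Of 51 tested genes whose promoter holds the motif, 7 were called lower in XHT (13.7%) and 4 higher (7.84%), beside 16.6% and 12.8% of the 9652 tested genes with a promoter entry. Among the 51 the next lowest after Serpinh1 was Plod2, a lysyl hydroxylase of collagen, at a log2 fold change of -2.94 ± 0.58 (adjusted p = 0.0171 in edgeR's quasi-likelihood test), singled out after its values were seen. A match describes these letters and is no sign of binding.

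The genes for proteins that fold and modify procollagen beside HSP47, listed with its collagen clients, were mostly lower in XHT as well. Of 22 such genes, all tested, 16 were lower (72.7%) and 0 higher, beside 16.1% and 12.4% of all tested genes. Their median log2 fold change was -1.88, beside -0.02 for all tested genes. The 6 others did not pass, and the single positive value was that of Mia3, an export factor for large cargo, at 0.01 ± 0.17 (log2 fold change ± SE). Kdelr3, a receptor that returns proteins to the endoplasmic reticulum, had 4.99, 13.2 and 7.49 CPM in XHT 1, 2 and 3, against 121, 120.4 and 55.6 CPM in MOD 1, 2 and 3 (log2 fold change -3.53 ± 0.46, edgeR adjusted p = 0.00993). Fkbp10, a prolyl isomerase that works with HSP47 on type I procollagen, averaged 34.9 ± 11.9 CPM in XHT and 200.7 ± 74.7 CPM in MOD (SD, n = 3 each). P3h1, a prolyl hydroxylase of collagen, averaged 18.1 ± 4.05 CPM in XHT and 83.4 ± 31.3 CPM in MOD. P4hb, the disulphide isomerase that is also a subunit of prolyl hydroxylase, had a log2 fold change of -1.05 ± 0.28 (edgeR adjusted p = 0.0335), beside -2.52 ± 0.38 for Fkbp10. Its call was lost with the replicate block (adjusted p = 0.0516 in edgeR) and when any library but MOD 3 was left out (0.0675 to 0.122). No test of the difference between these genes was made. Of this list 6 genes were called when MOD 1 was left out, 7 when MOD 2 was, 17 when MOD 3 was, 0 when XHT 1 was and 2 when XHT 3 was. Calls over all tested genes moved as well. They were 375 lower of 14717 without MOD 1, 570 of 14743 without MOD 2 and 3421 of 14960 without MOD 3.

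Among the clients, all 5 fibrillar chains and Col6a1, of type VI collagen, fell, and the 2 basement membrane chains did not pass. Over all tested genes 16.1% were called lower. Col6a1 had a log2 fold change of -2.24 ± 0.40 (edgeR adjusted p = 0.0143). Col1a1, which encodes a type I collagen chain, had a log2 fold change of -5.99 ± 1.29 (edgeR adjusted p = 0.0199). Col5a1, a chain of type V collagen, averaged 56.3 ± 36.3 CPM in XHT and 732 ± 276 CPM in MOD (log2 fold change -3.70 ± 0.54, edgeR adjusted p = 0.0109). Col4a1, of the basement membrane, averaged 816 ± 300 CPM in XHT and 1511 ± 241 CPM in MOD (log2 fold change -0.89 ± 0.37), which did not pass (edgeR adjusted p = 0.109). The FPKM ratio of Serpinh1 to Col1a1 was 3.85, 1.59 and 5.80 in XHT 1, 2 and 3, against 0.296, 0.301 and 0.344 in MOD 1, 2 and 3. These did not overlap (exact permutation p = 0.1, two-sided, adjusted 0.125), but the ratio depended on the chain. The ratio to Col1a2, the other type I chain, overlapped, at 2.34, 2.81 and 5.46 in XHT 1, 2 and 3, against 3.04, 2.56 and 1.15 in MOD 1, 2 and 3. That to Col4a1 was lower in every XHT library, at 0.445, 0.820 and 0.363 in XHT 1, 2 and 3, against 3.96, 3.59 and 1.59 in MOD 1, 2 and 3. The ratios to Col1a2 and Col4a1 were added after the data were seen and were not tested.

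**Figure D3:**
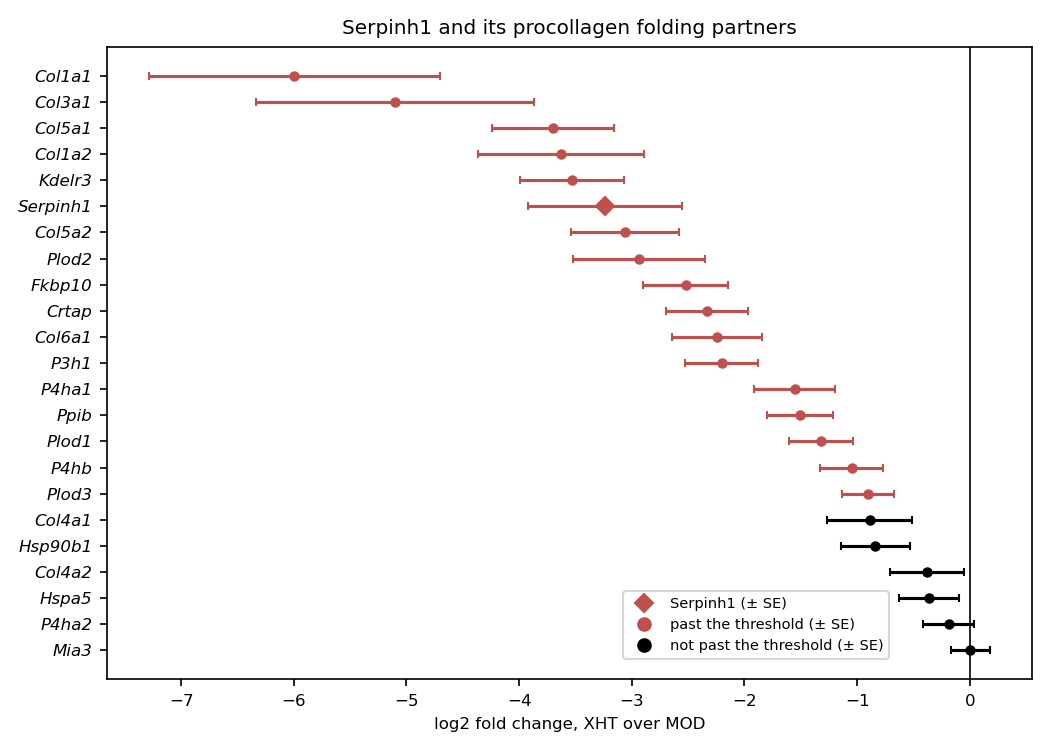
log2 fold change of XHT over MOD with its SE for Serpinh1 (diamond) and 22 procollagen clients and folding partners, red where past the threshold and black where not. Serpinh1, at -3.24, lies among the fibrillar collagen chains and to the right of Col1a1 at -5.99, and Mia3 lies at 0.01.

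Serpinf1 encodes pigment epithelium-derived factor, a secreted protein known to restrain vessel growth. It had 58.5, 136 and 54.2 CPM in XHT 1, 2 and 3, against 549, 574 and 290.4 CPM in MOD 1, 2 and 3. The groups did not overlap, and the closest pair was again XHT 2 and MOD 3, which differed 2.13-fold. The means were 83.0 ± 46.2 CPM in XHT and 471 ± 157 CPM in MOD (SD, n = 3 each), a log2 fold change of -2.51 ± 0.46 (edgeR adjusted p = 0.0151). Its share of the family's FPKM was steady in MOD, between 20.8% and 22.3%, and lay between 8.14% and 15.4% in XHT. Serpinf1 lies on chromosome 10 beside Serpinf2, the plasmin inhibitor, within 31.4 kb, and Serpinf2 had too few counts to be tested.

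Of the 11 serpins listed as inhibitors of plasminogen activation, coagulation or complement (with Serpine3, placed there by its clade), 8 had counts and 5 were tested, of which Serpine2 fell and 4 did not pass. That is 20% called lower, near the 16.1% of all tested genes. Serpine2 encodes protease nexin-1, a cell-surface inhibitor of thrombin and of plasminogen activators. It had 64.8, 101 and 74.3 CPM in XHT 1, 2 and 3, against 187, 152 and 158 CPM in MOD 1, 2 and 3. The groups did not overlap, with means of 80.1 ± 18.8 CPM in XHT and 166 ± 19.1 CPM in MOD (SD, n = 3 each). The log2 fold change was -1.05 ± 0.22 (edgeR adjusted p = 0.0198). Serpine2 was the one called serpin in which MOD 3 was not the lowest MOD library.

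The Serpine2 promoter is shown for its cluster of GC boxes (RefSeq, build GRCr8, minus strand, chr9:88637243-88637312, positions -110 to -41 from the transcription start).
Serpine2 promoter: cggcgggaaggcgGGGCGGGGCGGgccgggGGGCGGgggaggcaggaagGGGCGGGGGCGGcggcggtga
The capitals mark 5 copies of GGGCGG, of which the first and second share 1 base and the last 2 are adjacent. A sixth copy, on the other strand, lies outside the stretch shown. At least 1 copy on either strand is present in 33.1% of promoters and in 4 of the 8 tested serpins with an entry: Serpinh1, Serpine2, Serpinb9 and Serpinb6b. Of these 4, Serpinb6b was not called. TATAAA, also searched on both strands, is in 14.2% of promoters and, of these 8 serpins, in Serpinb1a.

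Of the plasminogen activators, which Serpine2 inhibits, Plau fell and Plat did not pass. Plau, the urokinase plasminogen activator, had 2.86, 4.46 and 1.91 CPM in XHT 1, 2 and 3, against 17.7, 22.9 and 15.1 CPM in MOD 1, 2 and 3. It fell, with no overlap between groups and a log2 fold change of -2.59 ± 0.35 (edgeR adjusted p = 0.0105). Plat, the tissue plasminogen activator, had 255, 352 and 359 CPM in XHT 1, 2 and 3, against 217, 285 and 198 CPM in MOD 1, 2 and 3 (log2 fold change 0.46 ± 0.25, edgeR adjusted p = 0.195). The Plat groups overlapped. Plaur, the urokinase receptor, averaged 7.86 ± 4.55 CPM in XHT and 19.0 ± 10.8 CPM in MOD, and Vtn, vitronectin of plasma and matrix, averaged 64.5 ± 14.0 CPM in XHT and 41.9 ± 26.9 CPM in MOD (SD, n = 3 each). Neither passed (edgeR adjusted p = 0.117 for Plaur and 0.287 for Vtn).

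Serping1, which encodes the inhibitor of the first complement component and of plasma kallikrein, had 142, 275 and 199 CPM in XHT 1, 2 and 3, against 339.9, 354 and 263 CPM in MOD 1, 2 and 3. XHT 2 lay above MOD 3, so the groups overlapped. The log2 fold change was -0.64 ± 0.29 and did not pass (edgeR adjusted p = 0.136). Of its target proteases, C1r and C1s averaged 383 ± 32.9 and 347 ± 31.8 CPM in XHT, against 456 ± 62.5 and 406 ± 88.0 CPM in MOD (SD, n = 3 each), and neither passed. Masp1, another complement protease inhibited by serpins, averaged 95.4 ± 7.25 CPM in XHT and 23.1 ± 23.1 CPM in MOD. XHT lay wholly above MOD, and the log2 fold change of 2.04 ± 0.64 narrowly did not pass (edgeR adjusted p = 0.0501). Masp2 averaged 2.09 ± 0.32 CPM in XHT and 4.03 ± 1.23 CPM in MOD, with XHT wholly below MOD (edgeR adjusted p = 0.0785).

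Several further members of this list were near the limit of detection. Serpinc1, antithrombin, had 21, 13 and 12 counts in XHT 1, 2 and 3, against 37, 51 and 24 counts in MOD 1, 2 and 3 (log2 fold change -0.91 ± 0.44, edgeR adjusted p = 0.147). Serpini1, neuroserpin, an inhibitor of tissue plasminogen activator in the nervous system, had 12, 12 and 14 counts in XHT 1, 2 and 3, against 25, 30 and 38 counts in MOD 1, 2 and 3. The Serpini1 groups did not overlap, yet the log2 fold change of -0.92 ± 0.37 did not pass (edgeR adjusted p = 0.0996). Serpinb2, which encodes PAI-2, had 0, 4 and 0 counts in XHT 1, 2 and 3, against 1, 48 and 2 counts in MOD 1, 2 and 3, so MOD 2 held nearly all. Serpinf2, the plasmin inhibitor, had 8 counts in XHT and 39 in MOD, 24 of them in MOD 2, and Serpine3 had 16 counts in XHT and 13 in MOD. These 3 were not tested in the main fit. Without the count filter they gave log2 fold changes of -3.17 ± 1.56, -1.86 ± 0.82 and 0.65 ± 0.71 in the order given, with edgeR adjusted p-values of 0.176, 0.139 and 0.543. Serpind1 (heparin cofactor II), Serpina5 (protein C inhibitor) and Serpina10 had 0 counts.

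Of 29 proteases that serpins inhibit, C1ra had no entry, 26 had counts and 14 were tested. Masp1 narrowly missed being called higher (edgeR adjusted p = 0.0501). Of the 14 tested, 3 were lower (21.4%, near the 16.1% of all tested genes) and 0 higher in XHT, with a median log2 fold change of -0.09. Beside Plau these were Ctsk, cathepsin K, at 31.0 ± 10.1 CPM in XHT and 245 ± 113 CPM in MOD, and St14, matriptase, at 3.26 ± 0.86 CPM in XHT and 12.3 ± 5.61 CPM in MOD (SD, n = 3 each). Leaving out single libraries gave between 0 and 5 lower. F2, prothrombin, had 4 counts over all libraries. Of 18 receptors and cofactors of serpins, Hspg2 had no entry, 17 had counts and 15 were tested, with 5 lower (33.3%) and 2 higher (13.3%), beside 16.1% and 12.4% of all tested genes. Sdc2 and Sdc1, heparan sulphate proteoglycans of the cell surface, fell by 2.07 ± 0.27 and 2.20 ± 0.36 on the log2 scale (edgeR adjusted p = 0.00993 for Sdc2 and 0.0129 for Sdc1). Plxdc2, described as a receptor for pigment epithelium-derived factor, fell by 1.56 ± 0.26, and Vldlr, a receptor that clears serpin-protease complexes, fell by 1.08 ± 0.21 (edgeR adjusted p = 0.0131 for Plxdc2 and 0.0159 for Vldlr). Lrp1, the other main clearance receptor, averaged 313 ± 93.2 CPM in XHT and 555 ± 91.4 CPM in MOD and did not pass (edgeR adjusted p = 0.0746). The 2 that rose, named after their values were seen, were the proteoglycans Sdc4, at 135 ± 83.7 CPM in XHT and 31.8 ± 10.6 CPM in MOD, and Gpc1, at 395 ± 94.2 CPM in XHT and 119 ± 66.2 CPM in MOD (SD, n = 3 each). Leaving out single libraries in this list called between 0 and 7 genes lower and between 0 and 6 higher.

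Clade B serpins stay inside cells and guard them against leaked granule proteases. Of the 14 in this group, 7 had counts and 5 were tested, of which Serpinb9 and Serpinb8 fell and 3 did not pass. That is 40% called lower, beside 16.1% of all tested genes. Serpinb9, known in human and mouse as the inhibitor of granzyme B, had 11.97, 20.8 and 9.53 CPM in XHT 1, 2 and 3, against 57.0, 64.0 and 42.8 CPM in MOD 1, 2 and 3. The groups did not overlap and the means were 14.1 ± 5.96 CPM in XHT and 54.6 ± 10.8 CPM in MOD (SD, n = 3 each). The log2 fold change was -1.95 ± 0.32 (edgeR adjusted p = 0.0127), the lowest adjusted p among the serpins. Gzmb, granzyme B itself, had 48 counts over all libraries and was not tested. The 8 markers of T and natural killer cells summed to between 13.3 and 19.0 CPM in XHT and between 20.8 and 32.4 CPM in MOD. Cd8a carried that difference: without it the sums overlapped, at 11.7 to 15.1 CPM in XHT and 6.42 to 17.4 CPM in MOD.

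Serpinb8, known in human cells to inhibit furin, had 10, 48 and 5 counts in XHT 1, 2 and 3, against 169, 214 and 103 counts in MOD 1, 2 and 3. XHT 2 carried most of the XHT reads and still lay below MOD 3. The means were 1.34 ± 1.46 CPM in XHT and 8.26 ± 2.69 CPM in MOD, with a log2 fold change of -2.61 ± 0.74 (edgeR adjusted p = 0.0396). Its XHT libraries differed 8.86-fold among themselves, the widest spread of the 12 tested serpins.

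Serpinb6, a widely expressed inhibitor that in human acts on cathepsin G, showed almost no difference, with 88.1, 81.5 and 94.8 CPM in XHT 1, 2 and 3, against 108, 96.2 and 73.0 CPM in MOD 1, 2 and 3. The log2 fold change was -0.07 ± 0.20 (edgeR adjusted p = 0.804), and it was 0.06 without MOD 1. Serpinb6b, on the same chromosome, had 2.59, 3.83 and 2.38 CPM in XHT 1, 2 and 3, against 7.53, 5.43 and 3.76 CPM in MOD 1, 2 and 3 (log2 fold change -0.92 ± 0.36, edgeR adjusted p = 0.0897). Reads shared between these similar genes could be split by the counting, so both values are uncertain. Serpinb1a, the inhibitor of neutrophil elastase, had 16.8, 14.2 and 2.99 CPM in XHT 1, 2 and 3, against 25.7, 20.3 and 11.99 CPM in MOD 1, 2 and 3. XHT 3 stood apart at the low end, and the log2 fold change of -0.77 ± 0.58 did not pass (edgeR adjusted p = 0.336). The 7 neutrophil markers summed to between 34.6 and 128 CPM in XHT and between 17.5 and 81.2 CPM in MOD. S100a8, a neutrophil protein on that list, had 35.0, 19.7 and 1.70 CPM in XHT 1, 2 and 3, against 1.37, 5.04 and 0.103 CPM in MOD 1, 2 and 3. Its log2 fold change of 3.11, opposite in sign to that of Serpinb1a, did not pass (edgeR adjusted p = 0.107). The S100a8 change was the largest among the tested markers of that list, beside 2.19 for Cxcr2, 1.98 for S100a9, 0.41 for Csf3r and -0.08 for Lcn2. None of these passed. XHT 3 was the lowest XHT library for S100a8, S100a9, Csf3r and Cxcr2, as for Serpinb1a. Of the tested markers on the list, only Lcn2 was highest in XHT 3. Lcn2 had 17.6, 21.2 and 23.6 CPM in XHT 1, 2 and 3. The part of neutrophils in the Serpinb1a values was not tested.

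**Figure D4:**
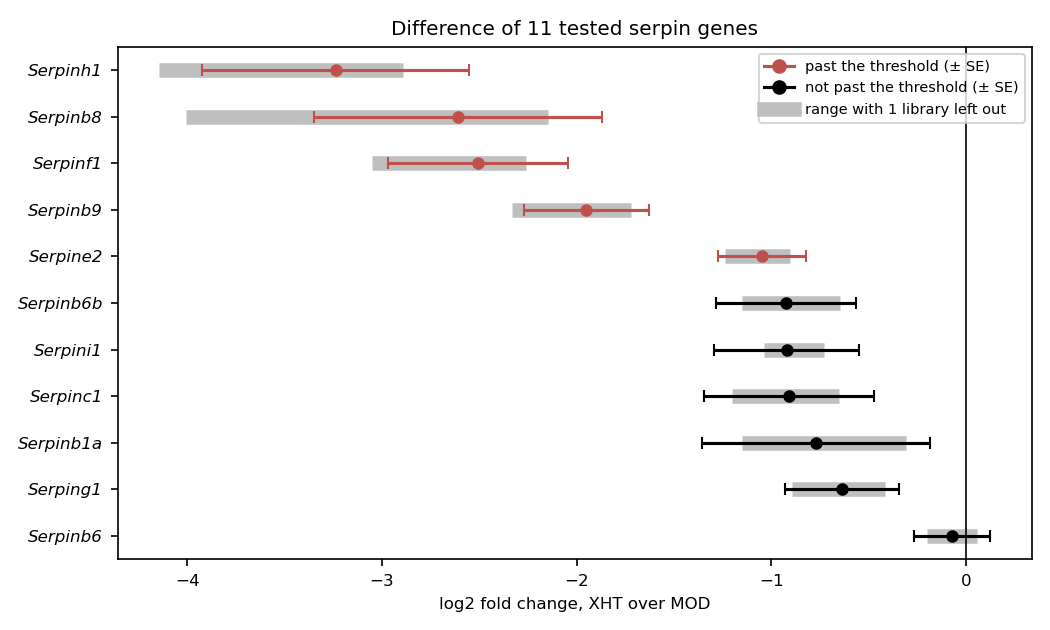
log2 fold change of XHT over MOD with its SE for 11 tested serpins, red where past the threshold, and in grey the range over 6 fits that each leave out 1 library. Values run from -3.24 for Serpinh1 to -0.07 for Serpinb6, and the grey range crosses 0 for Serpinb6.

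Clade B genes lie in 2 clusters in the deposited coordinates, and these differed in how much was detected. The 6 on chromosome 17, between 32190801 and 32911495, included 4 tested genes (Serpinb6, Serpinb9, Serpinb6b and Serpinb1a). The 10 on chromosome 13, between 26903052 and 27914006, included 1 tested gene, Serpinb8, at the far end. Serpinb10 had 24 counts in XHT and 22 in MOD, 17 of them in XHT 1, and Serpinb7 had 16 counts in each group. Serpinb5 (maspin), Serpinb3, Serpinb3a, Serpinb11, Serpinb12, Serpinb13, Serpinb1b and Serpinb9d had 0 counts.

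The clade A serpins, secreted mainly by liver, were barely present. The 11 on chromosome 6, between 127500016 and 128003418, included 4 with any count: Serpina9 with 1 in XHT and 5 in MOD, Serpina12 (vaspin) and Serpina4 (kallistatin) with 0 in XHT and 2 in MOD each, and Serpina1 (antitrypsin) with 0 in XHT and 1 in MOD. Serpina1f, Serpina3c, Serpina3m, Serpina11, the corticosteroid carrier Serpina6 and, on chromosome X, the thyroxine carrier Serpina7 had 0 counts, as had Serpini2 of clade I. A count of 0 allows up to 3 counts, which is between 0.188 and 0.204 CPM in the XHT libraries and between 0.148 and 0.158 CPM in the MOD libraries, counting error only. Of the 6 hepatocyte markers, Fga and Ahsg were at 0 in every library, Alb, Fgb and Apoa1 had 2, 1 and 30 counts over all libraries, and Ttr had 969. The endothelial marker Cldn5 was also listed at 0 in every library, so a 0 in this table need not mean that a gene was silent. Serpina3n was not analysed here.

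Within the groups, XHT 2 was the highest XHT library for 7 of 12 and for all 5 that fell, and MOD 3 was the lowest MOD library for 10 of 12 and for 4 of the 5. For all 5 the XHT values also spread over a wider fold range than the MOD values. Of the 8 fibroblast markers, XHT 2 was the highest XHT library for 6 (not for Dcn and Tcf21) and MOD 3 the lowest MOD library for 8. MOD 3 was also the lowest MOD library for all macrophage markers but Cd163. The same held for all smooth muscle and pericyte markers but Rgs5, while all cardiomyocyte markers were highest there. Shares of these patterns over all tested genes were not computed, so they are not shown to be particular to serpins or fibroblasts. Postn, a matrix protein of activated fibroblasts, had 5.72, 118 and 26.1 CPM in XHT 1, 2 and 3, against 5619, 7605 and 1611 CPM in MOD 1, 2 and 3.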

How the data were processed

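The deposited table held values for 6 libraries of mRNA selected by oligo(dT), with a dUTP-labelled second strand and molecular identifiers in the adapters, per the labels' protocols. The authors deposited raw counts for each gene, per the file headers. The submitters' processing notes list HISAT2 (2.0.5), StringTie (1.3.3b), the counter featureCounts (1.5.0-p3) and DESeq2 (1.16.1). Their settings, any use of strand or identifiers, and the build were not stated. The deposited FPKM values were found to be counts over gene length and over a number for each library that is proportional to its DESeq2 size factor; they therefore carry that scaling. The authors' group means, a deposited signal, and the authors' deposited log2 fold changes and p-values describe only the authors' own comparison.

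Testing used edgeR (4.0.16, R 4.3.3) on the counts of every gene passing filterByExpr (minimum count 10, minimum total 15), scaled by TMM. A robust quasi-likelihood model compared XHT with MOD, with no covariate, and the Benjamini-Hochberg threshold was 0.05. CPM values are TMM-normalised. SE is the log2 fold change over the square root of the F statistic. The fit was tested on simulated data. Floors cover counting error only. No library pair was a duplicate (chi-square per degree of freedom at least 42.6).

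Alternatives were DESeq2 size factors, total count scaling, no count filter, a replicate block, DESeq2 1.42.0, the mitochondrial genome left out, each library left out, and, added after seeing the data, the legacy quasi-likelihood fit. The members, role groups and gene lists were chosen with earlier results of these data known. By rule, values in each library are given for called members and for 15 listed symbols, of which Serpina3n and Serpinb6a are not analysed here. From the partner lists the rule names up to 4 called genes of lowest p and 9 fixed genes. Mia3, Col4a1, Col6a1, Plod2, C1r, C1s, Masp1, Masp2, Gzmb, S100a8, S100a9, Csf3r, Cxcr2, Lcn2, Cd163, Rgs5, Sdc4 and Gpc1 were named after their values were seen. 1 member is counted but not reported here. Promoters matched 30 of the 39 members by symbol.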

Additional observations from a re-analysis of the deposited data

How the results depend on the processing

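All 5 serpins called lower stayed called with DESeq2 size factors, total count scaling, no count filter, the replicate block, DESeq2's Wald test, the mitochondrial genome left out and the legacy quasi-likelihood fit, and 0 were called higher. Total count scaling, which shifted the median over all tested genes by -0.39 (log2), called 8 serpins lower (adding Serping1, Serpinb6b and Serpini1), 5 proteases lower, and of all genes 925 higher and 4320 lower, against 1792 and 2336 in the main fit. DESeq2's Wald test called 2718 genes higher. Proteases called higher, 0 in the main fit, were 2 with DESeq2's Wald test and 1 with DESeq2 size factors, with the mitochondrial genome left out or with the replicate block; the cause was not tested. Leaving out 1 library gave 0 to 7 serpins lower, 4 to 3487 genes higher and 4 to 3421 lower, 0 to 1 proteases higher and 0 to 5 lower, 0 to 6 receptors and cofactors higher and 0 to 7 lower, and 0 to 17 folding partners lower; the log2 fold change of Serpinb6 ran from -0.20 to 0.06 (0.057 when MOD 1 was left out). Such fits hold fewer samples.

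With the replicate block the serpins called lower were 5 and the folding partners 15. The deviations of same-numbered libraries from their group means had correlations of -0.07, 0.25 and 0.12 across genes, and not every library correlated best with its own number, so the numbers were not taken to pair the samples. Depth limits the 9 serpins with 1 to 55 counts.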
